A study of Mus musculus with 48 samples.

Results

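The facilitative glucose transporters of the Slc2a family (the GLUT proteins) were followed in the liver and the colon of young adult mice. The 8 genes *Slc2a1*, *Slc2a2*, *Slc2a3*, *Slc2a4*, *Slc2a5*, *Slc2a8*, *Slc2a9* and *Slc2a10* were chosen by name, and all array probes whose accession maps to one of them were taken. This gave 13 of the 41174 probes and 8 of the 18434 named genes on the array. *Slc2a8* and *Slc2a2* had 2 probes each, *Slc2a9* had 4, and the other genes had 1. Where a gene had several probes they were numbered by their Cy3 brightness, and the first probe stands for the gene. The genes were chosen with values of these mice known, so their values, and any calls among them, are given as a description and not as a test.

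All mice were C57BL/6 (C57/BL6 in the labels) and ate a high-fat diet. Diet H held selenium and folate above the recommended requirement, and diet L was marginally deficient in both. The first letter of a group is the diet of the dam in gestation and lactation, and the second letter is the diet of the offspring from weaning to 12 weeks of age. The groups were therefore HH, diet H throughout, HL, diet L after weaning, LH, diet L before weaning, and LL, diet L throughout. The methods describe male offspring that were fasted and re-fed before sampling. The liver groups held 5 HH mice and 6 mice each of HL, LH and LL, and the colon groups held 6 mice each. Cy3-labelled RNA of each mouse was hybridised against a Cy5-labelled common reference without a dye swap, and each value is a log2 ratio of mouse over reference. The methods call the reference a pool of intestinal and liver RNA, whereas its deposited description names other tissues. Each of the 12 slides held 1 array of each of the 4 groups of 1 tissue.

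Some arrays stood apart. In the labels, 2 HH liver arrays carry 1 animal number. Their deviations from the group mean correlated at 0.805 over probes, while no pair of HH liver arrays from different animals exceeded 0.261. Their mean was taken as HH mouse 3. *Xist*, a transcript of the inactive X chromosome of females, was bright on 1 liver and 6 colon arrays, whereas the methods describe male offspring. On these arrays the raw Cy3 level (log2) of the Y-linked *Eif2s3y* differed. It was 6.29 in liver HL mouse 2, and 7.37, 6.38 and 6.3 in colon LL mouse 1, LL mouse 3 and HL mouse 5. In colon HH mouse 1, HH mouse 5 and LL mouse 5 it was 10.7, 10.09 and 11.17. The arrays with bright *Xist* were thus spread unevenly over the colon diet groups. The summed Cy3 level (log2) of 5 pancreas markers was 15.1 in liver HL mouse 1 and at most 11.7 in the other livers. That of 4 macrophage markers was 15.6 in colon LL mouse 4 and at most 12.5 in the other colons. Between 55.1% and 66% of spots were well above background in Cy3 on the liver arrays, and between 66.8% and 73.7% on the colon arrays. The tissues matched their labels. In limma, all 7 hepatocyte markers were called higher in liver, and all 8 colon epithelial markers and all 6 smooth muscle markers were called lower in liver.

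Slc2a proteins carry hexoses across membranes down their gradient, without using energy. GLUT2 (*Slc2a2*) is the low-affinity transporter of the hepatocyte, which takes up glucose after a meal and lets it out in fasting. GLUT1 (*Slc2a1*) and GLUT3 (*Slc2a3*) are high-affinity transporters of many cell types, and GLUT4 (*Slc2a4*) is the insulin-responsive transporter of muscle and fat. GLUT5 (*Slc2a5*) carries fructose, GLUT8 (*Slc2a8*) lies mostly on inner membranes, and GLUT9 (*Slc2a9*) carries urate, which the liver degrades in mice. GLUT10 (*Slc2a10*) is known for the arterial disease that follows its loss.

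The promoters of *Slc2a2*, *Slc2a8* and *Slc2a9* are shown because these genes had 2 or more probes, and all of them gave the same order of the 4 diet groups in the liver. The sequences are RefSeq sequences of the build GRCm38.p6 and hold the 250 bases before the annotated start, written 5′ to 3′ on the strand of the gene. Capitals mark every match, on either strand, to the CCAAT box (CCAAT) or to a core motif of nuclear receptors (AGGTCA). The windows lie at chr3:28697653-28697902 on the plus strand for *Slc2a2*, at chr2:32982084-32982333 on the minus strand for *Slc2a8*, and at chr5:38483386-38483635 on the minus strand for *Slc2a9*.
Slc2a2: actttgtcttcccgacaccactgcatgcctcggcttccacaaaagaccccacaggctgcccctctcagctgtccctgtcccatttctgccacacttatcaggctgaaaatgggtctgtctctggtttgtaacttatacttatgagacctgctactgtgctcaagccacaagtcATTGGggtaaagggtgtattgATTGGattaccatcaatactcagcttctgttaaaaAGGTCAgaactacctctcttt
Slc2a8: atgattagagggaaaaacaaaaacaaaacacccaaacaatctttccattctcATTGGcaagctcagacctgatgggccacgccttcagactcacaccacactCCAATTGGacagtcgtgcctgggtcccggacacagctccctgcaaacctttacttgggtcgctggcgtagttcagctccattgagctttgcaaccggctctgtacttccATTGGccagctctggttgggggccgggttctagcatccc
Slc2a9: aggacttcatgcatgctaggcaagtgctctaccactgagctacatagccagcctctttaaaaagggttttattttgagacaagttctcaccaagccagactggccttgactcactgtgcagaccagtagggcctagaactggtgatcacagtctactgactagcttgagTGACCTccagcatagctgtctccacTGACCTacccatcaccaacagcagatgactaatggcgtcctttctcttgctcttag

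The window of *Slc2a2* held 2 matches to CCAAT and 1 to AGGTCA. That of *Slc2a8* held 4 matches to CCAAT, 2 of which overlap on opposite strands, and none to AGGTCA. That of *Slc2a9* held 2 matches to AGGTCA and none to CCAAT. Of 32851 promoter windows of the same length, 33.8% held CCAAT and 14% held AGGTCA. The HNF1 core motif GTTAAT, held by 6.43% of windows, and the E-box CACGTG, held by 6.02%, had no match in the windows of *Slc2a1*, *Slc2a2*, *Slc2a5*, *Slc2a8*, *Slc2a9* and *Slc2a10*. These 6 of the 8 genes had a window. The single probe of *Slc2a1* had the same order too, and its window held no match to CCAAT or AGGTCA.

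The members differed most between the tissues. Of the 13 probes, 7 were called higher and 3 lower in liver than in colon (limma, fold change over 1.5 and FDR under 0.05), where 30.4% of all probes were called, 14.6% higher and 15.7% lower in liver. The values of liver and colon mice did not overlap for 9 of the 13 probes. Over all probes, 11.1% lay wholly higher and 12.1% wholly lower in liver. The genes were chosen with these values known, so the counts of member probes are a description. The tissues were hybridised on different slides and scanned on different days, so tissue and slide cannot be told apart.

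The hepatic transporter *Slc2a2* had by far the widest gap. Its first probe, A_51_P185693, lay between 1.04 and 2.57 in the 23 livers (median 2.05) and between -6.07 and -4.41 in the 24 colons (median -5.41). The mean difference was 7.41 ± 0.09 (SE), or 171-fold, but the probe was well above background on only 10 of the 24 colon arrays. The second probe, A_52_P409988, was well above background on every array and gave 4.57 ± 0.11, or 23.7-fold. Both probes thus placed every liver above every colon, with a size that depended on the probe.

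*Slc2a9* and *Slc2a8* were higher in liver by less. The first probe of *Slc2a9*, A_51_P261092, had a median of 1.81 in liver (1.09 to 2.16) and of 0.12 in colon (-0.33 to 0.47), a difference of 1.65 ± 0.06. The second probe gave 1.42 ± 0.09 and the third 0.91 ± 0.07, and the third overlapped between tissues. The fourth probe (A_52_P335166), which was well above background on 14 liver and 3 colon arrays, gave 0.31 ± 0.06. The first probe of *Slc2a8*, A_52_P125354, had a median of 1.03 in liver (0.53 to 1.45) and of 0.03 in colon (-0.43 to 0.44), a difference of 0.94 ± 0.06. No liver lay as low as the highest colon for both probes of *Slc2a8* and for the first 2 probes of *Slc2a9*. With median centring in place of loess, the gap of *Slc2a8* was 0.32 for the first probe.

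*Slc2a1*, *Slc2a4* and *Slc2a10* were higher in colon. The median of *Slc2a1* was -2.70 in liver (-3.13 to -1.39) and -0.88 in colon (-1.35 to -0.54), a difference of -1.72 ± 0.09. The median of *Slc2a4* was -2.98 in liver (-4.60 to -2.28) and -0.05 in colon (-0.55 to 0.27), a difference of -3.09 ± 0.14. No liver reached the lowest colon for either gene. The probe of *Slc2a10* was well above background on all 24 colon arrays and on 2 of 24 liver arrays, both HH. Where no liver array of a group measured it, the colon was at least 4.94-fold higher for HL, 4.84-fold for LH and 4.79-fold for LL, set against the level of the dim liver spots themselves.

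As *Slc2a4* is a transporter of muscle and fat, markers of smooth muscle, skeletal muscle and adipocytes were set beside it. The summed Cy3 level of 6 smooth muscle markers was 18.40 to 19.14 (log2) in the colons and 13.48 to 14.60 in the livers. That of 5 skeletal muscle markers was 14.96 to 15.73 in the colons and 14.74 to 15.55 in the livers. The summed level of 5 adipocyte markers ranged from 11.63 to 17.59 in the colons and from 9.95 to 15.06 in the livers. The part of these markers in the tissue difference was not tested. In such bulk samples, more cells of a type and more RNA per cell cannot be told apart.

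*Slc2a3* and *Slc2a5* overlapped between the tissues. *Slc2a3* had a median of -1.37 in liver and -1.29 in colon, a difference of -0.16 with a 95% interval of -0.27 to -0.05, and one of -0.78 with median centring, which is past 1.5-fold. *Slc2a5* had a median of -1.65 in liver and -2.17 in colon, a difference of 0.47 (0.20 to 0.74) that turned to -0.08 with median centring.

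**Figure D1:**
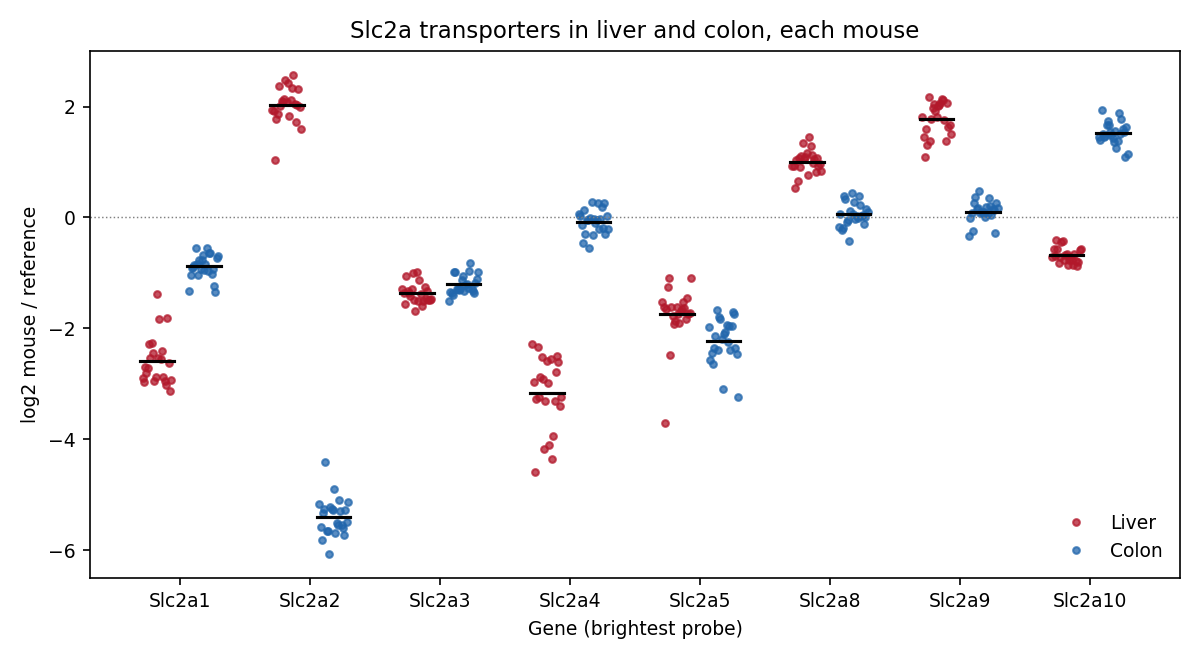
Log2 ratio of mouse over reference (vertical axis) for the first probe of each of the 8 genes (horizontal axis), with 1 point for each of the 23 livers (red) and 24 colons (blue) and a bar at the mean. Livers and colons lie fully apart for all genes but *Slc2a3* and *Slc2a5*, and the ratio to the reference does not rank one gene against another.

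Within a tissue, no diet comparison gave a call. In the liver, 0 of the 13 member probes and 0 of all 41171 probes (0%) were called by limma in each of the 6 pairs of groups. At an unadjusted p under 0.05, 12% of all probes passed in HH *vs.* LH (4934 probes), 4.37% in HH *vs.* HL (1800) and 3.45% in HH *vs.* LL (1419). In the colon 0 of 41173 probes (0%) were called in each pair, and the share at an unadjusted p under 0.05 was 3.24% in HH *vs.* LH, 1.46% in HH *vs.* HL and 1.72% in HH *vs.* LL.

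The order of the diet groups in the liver was the same for 9 of the 13 probes. Both probes of *Slc2a2* and of *Slc2a8*, all 4 probes of *Slc2a9* and the probe of *Slc2a1* had their lowest mean in HH, then LL, then HL, and the highest in LH. Over all probes, 10.2% had this order in the liver. Probes of 1 gene are not independent and the genes were chosen with these values known, so the count is a description. The other 4 probes each had an order of their own. For every probe and in both tissues, each pair of neighbours in the order overlapped. In the colon no order was shared by more than 2 probes. The spread (SD) of the log2 ratios over a whole liver array also differed between the groups. It was 0.836 to 0.874 in HH, 0.863 to 0.944 in HL, 0.837 to 0.944 in LH and 0.868 to 0.944 in LL. Its part in the order was not tested.

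The liver values of *Slc2a2* were lowest in HH. On the first probe the 5 HH livers had 1.94, 1.92, 1.04, 1.77 and 1.86, where 1.04 is HH mouse 3. HL livers ran from 2.00 to 2.48 (median 2.12), LH livers from 1.83 to 2.57 (2.22) and LL livers from 1.59 to 2.31 (2.01). All HL livers thus lay above all HH livers, while LH and LL overlapped HH. The difference from HH was 0.49 ± 0.16 for HL (SE, 1.40-fold), 0.52 ± 0.16 for LH (1.43-fold) and 0.24 ± 0.16 for LL. Without HH mouse 3 these were 0.32, 0.35 and 0.07.

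The second probe of *Slc2a2* gave wider differences, with another HH mouse the lowest. Its 5 HH livers had 1.49, 1.28, 1.48, 0.36 and 1.03, of which 0.36 is HH mouse 4 and 1.48 is HH mouse 3. HL livers ran from 0.96 to 2.71 (median 2.13), LH livers from 1.55 to 2.85 (2.40) and LL livers from 1.29 to 2.44 (1.52). All LH livers lay above all HH livers. The difference from HH was 1.20 ± 0.30 for LH (2.29-fold, 95% interval 0.58 to 1.81), 0.93 ± 0.30 for HL (1.91-fold) and 0.61 ± 0.30 for LL. On each of the 6 liver slides, the LH and the HL array exceeded the HH array for both probes of *Slc2a2*. The HH arrays of slides 3 and 6 both hold HH mouse 3, the lowest liver on the first probe, so 5 HH mice stand behind the 6 slides.

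*Slc2a9*, the urate transporter, had the same order with a smaller spread in LH. On the first probe the 5 HH livers had 1.81, 1.45, 1.09, 1.59 and 1.31, with HH mouse 3 the lowest. HL livers ran from 1.37 to 2.16 (median 1.94), LH livers from 1.82 to 2.13 (2.05) and LL livers from 1.39 to 2.07 (1.65). All LH livers lay above all HH livers, although the nearest mice had 1.82 and 1.81. The difference from HH was 0.58 ± 0.13 for LH (1.49-fold, 95% interval 0.30 to 0.86), 0.42 ± 0.13 for HL and 0.22 ± 0.13 for LL, and without HH mouse 3 it was 0.49, 0.33 and 0.13.

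The other probes of *Slc2a9* gave LH differences of 0.65 ± 0.22, 0.57 ± 0.18 and 0.25 ± 0.16, and their HH and LH livers overlapped. On all 4 probes of *Slc2a9*, the 2 highest LH livers were mice 5 and 6. Mice 5 and 6 were also the 2 highest HL and LH livers for the second probes of *Slc2a2* and *Slc2a8*. They lie on the slides 5 and 6 of the liver, and the spread of log2 ratios on their arrays was 0.934 to 0.944. LH mouse 2 and LL mouse 4 also had 0.944. With slide as a block the LH difference was 1.15 ± 0.27 for the second probe of *Slc2a2* and 0.57 ± 0.13 for the first probe of *Slc2a9*.

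*Slc2a8* differed less between the diets. On the first probe the 5 HH livers had 0.93, 0.92, 0.53, 1.03 and 0.66, and again 0.53 is HH mouse 3. HL livers ran from 0.91 to 1.34 (median 1.08), LH livers from 0.76 to 1.45 (1.14) and LL livers from 0.82 to 1.06 (0.95). All groups overlapped HH. Set against HH, the difference was 0.32 ± 0.11 for LH (1.24-fold), 0.28 ± 0.11 for HL and 0.13 ± 0.11 for LL, and without HH mouse 3 it was 0.24, 0.21 and 0.06.

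**Figure D2:**
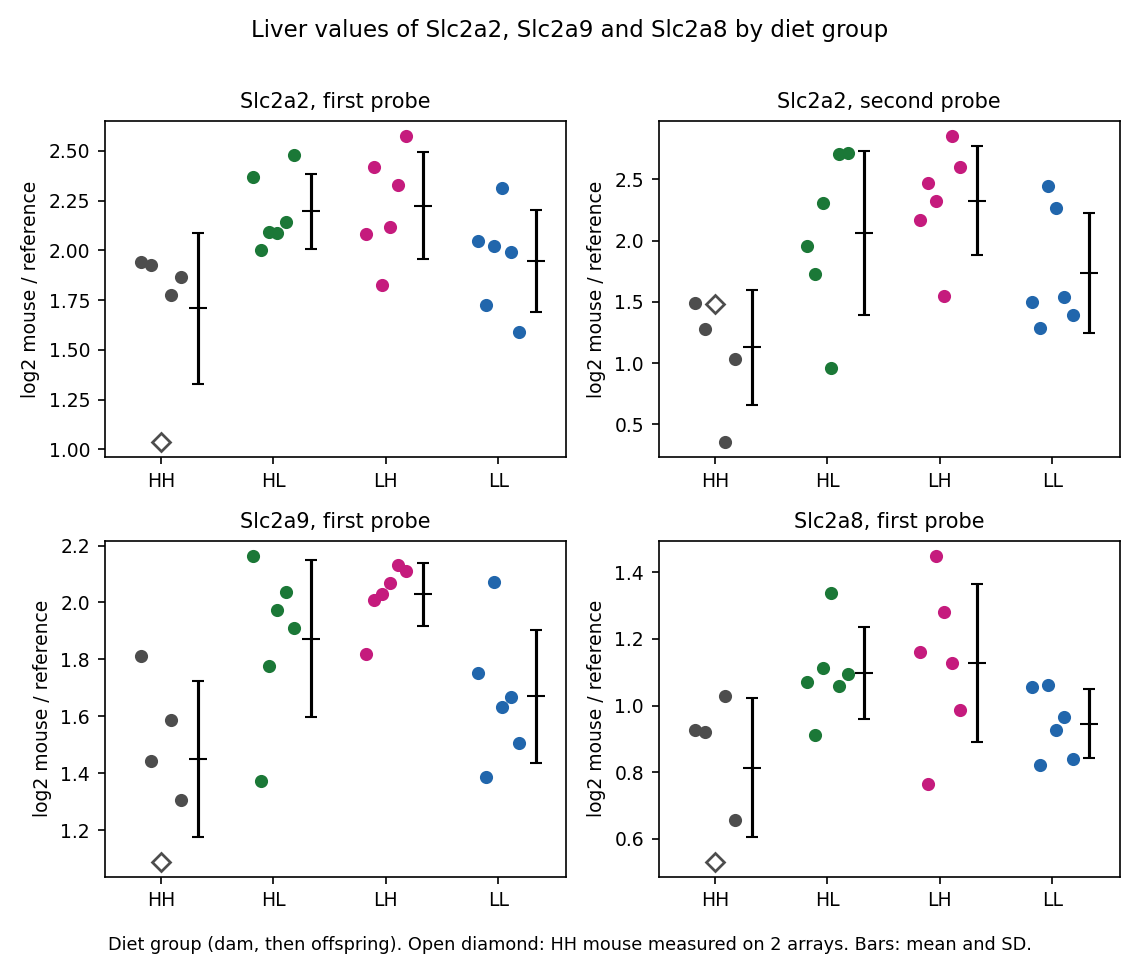
Log2 ratio of mouse over reference (vertical axis) in each liver by diet group (horizontal axis) for both probes of *Slc2a2* and the first probe of *Slc2a9* and of *Slc2a8*, with the mean and SD beside the points; vertical axes do not start at 0 and differ between panels. The HH mouse measured on 2 arrays (open diamond) is the lowest liver on 3 of the 4 panels but not for the second probe of *Slc2a2*, where it has 1.48.

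Probes whose groups did not overlap were few. Among the 13 probes, 1 was wholly higher in HL than in HH (first probe of *Slc2a2*), where 0.122% of all probes were, and 2 were wholly higher in LH than in HH (the second probe of *Slc2a2*, the first of *Slc2a9*), where 0.697% of all probes were. No member probe was wholly lower, where 0.0805% of all probes were in HL and 0.846% in LH. None lay apart in HH *vs.* LL, where 0.078% of all probes were wholly higher and 0.249% wholly lower in LL. The genes were chosen with these values known, so nothing is read from these counts. The median difference from HH over the 13 probes was 0.37 for LH, 0.25 for HL and 0.12 for LL, against medians between -0.008 and -0.005 over all probes.

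Summed levels of some cell type markers also differed between the diet groups of the liver. The summed level of the 7 hepatocyte markers was 19.82 to 20.16 (log2 Cy3) in LH livers and 19.38 to 19.79 in HH livers, with no overlap and a mean difference of 0.37. It was 19.28 to 20.02 in HL and 19.70 to 20.09 in LL, with mean differences of 0.12 and 0.23 from HH. The HL and LL livers overlapped. The summed level of 4 neutrophil markers ran the other way, at 10.38 to 11.06 in LH, 11.05 to 12.78 in HH, 10.64 to 12.44 in HL and 11.04 to 12.26 in LL. The other marker lists overlapped between LH and HH livers, with differences from -0.55 (macrophage) to 0.13 (skeletal muscle). None of these markers was called in a diet comparison. Their part in the *Slc2a2* and *Slc2a9* differences was not tested.

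Among the first probes, those of *Slc2a1*, *Slc2a4* and *Slc2a5* varied most over the 23 livers, with an SD of 0.44, 0.67 and 0.51. For *Slc2a1* the 5 HH livers had -2.89, -2.96, -2.70, -2.81 and -2.71. LH livers ran from -2.88 to -1.39 (median -2.48), HL livers from -2.96 to -2.27 (-2.49) and LL livers from -3.13 to -1.81 (-2.94). The difference from HH was 0.55 ± 0.23 for LH (1.46-fold), 0.25 ± 0.23 for HL and 0.07 ± 0.23 for LL. The 2 highest LH livers were mice 1 and 3, at -1.39 and -1.84.

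For *Slc2a4* the 5 HH livers had -2.28, -2.97, -4.60, -3.28 and -2.34, with HH mouse 3 the lowest of all livers. LH livers ran from -4.35 to -2.56 (median -3.46), HL livers from -4.17 to -2.52 (-3.07) and LL livers from -3.40 to -2.49 (-3.01). The difference from HH was -0.33 ± 0.39 for LH, -0.08 ± 0.39 for HL and 0.12 ± 0.39 for LL. All groups overlapped, and the 95% interval for LH ran from -1.13 to 0.47. Without HH mouse 3 the LL difference was -0.26, the LH difference -0.70 and the HL difference -0.45.

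For *Slc2a5*, the fructose transporter, the 5 HH livers had -1.53, -1.62, -3.71, -1.65 and -1.25. HH mouse 3 lay at -3.71, and the lowest of all other livers, HL mouse 2, at -2.47. LH livers ran from -1.91 to -1.53 (median -1.67), HL livers from -2.47 to -1.08 (-1.82) and LL livers from -1.84 to -1.10 (-1.68). The differences from HH of 0.26 ± 0.30 for LH, 0.16 ± 0.30 for HL and 0.37 ± 0.30 for LL all changed sign without HH mouse 3, to -0.18, -0.28 and -0.07. HL mouse 2 is the liver with bright *Xist*, and without it the HL difference was 0.30.

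**Figure D3:**
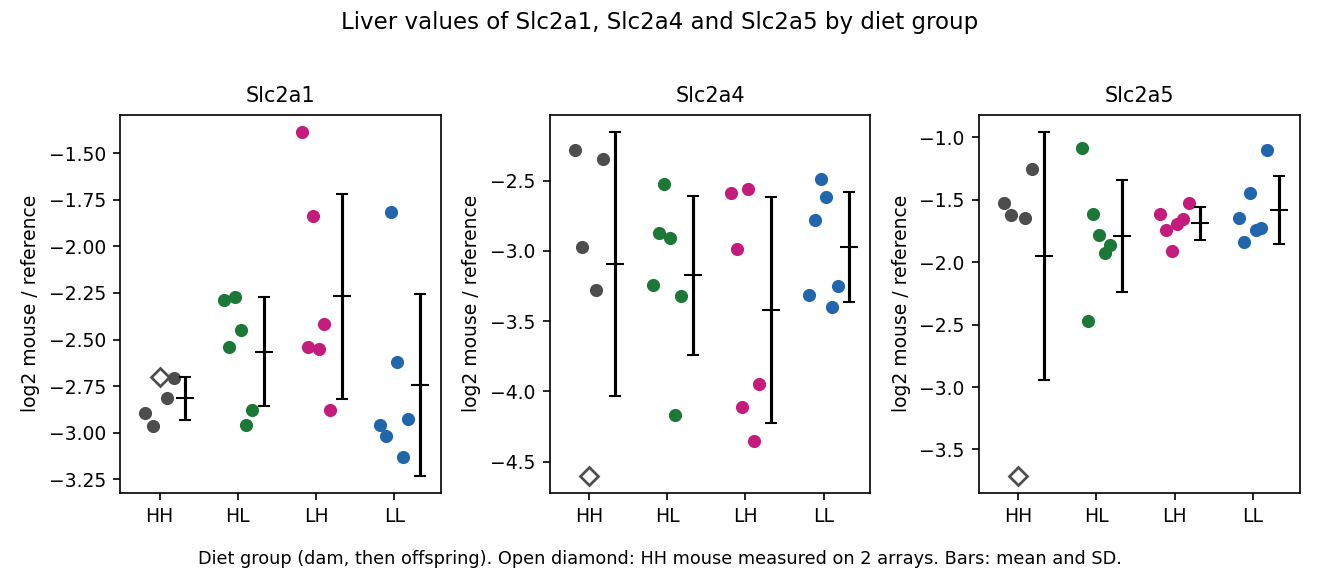
Log2 ratio of mouse over reference (vertical axis) in each liver by diet group (horizontal axis) for *Slc2a1*, *Slc2a4* and *Slc2a5*, with the mean and SD beside the points; vertical axes differ between panels. The open diamond is the HH mouse measured on 2 arrays, which lies at -4.60 for *Slc2a4* and -3.71 for *Slc2a5*, below every other liver, and at -2.70 for *Slc2a1*, in the middle of the livers.

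HH mouse 3 was low on both of its arrays. Its arrays gave -3.80 and -3.62 for *Slc2a5*, -4.61 and -4.59 for *Slc2a4*, 1.05 and 1.03 for the first probe of *Slc2a2*, and 1.17 and 1.01 for that of *Slc2a9*. It was the lowest of the 23 livers for the first probes of *Slc2a2*, *Slc2a4*, *Slc2a5*, *Slc2a8* and *Slc2a9*, and ranked between 3 and 13 for the other 8 probes. It also had the highest summed level of 4 macrophage markers (14.88, other livers 13.17 to 14.42), of 4 neutrophil markers (12.78, others 10.38 to 12.44) and of 5 small intestine markers (16.42, others 14.65 to 15.94), a list whose *Apoa4* was 5.12 (log2) higher in liver than in colon. Its hepatocyte sum of 19.71 lay within that of the others. The part of these markers in its values was not tested.

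*Slc2a3* and *Slc2a10* had small differences from HH in the liver. The differences of *Slc2a3* were -0.05 ± 0.11 for HL, -0.03 ± 0.11 for LH and -0.10 ± 0.11 for LL, with 95% intervals within -0.33 and 0.21. Those of *Slc2a10* were -0.05 ± 0.08, -0.18 ± 0.08 (95% interval -0.35 to -0.01) and -0.12 ± 0.08, on a probe that was at or near background in the liver.

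The colon showed smaller differences among the diets. Over the 13 probes the differences from HH ran from -0.27 (HL, first probe of *Slc2a2*, mostly below background there) to 0.23 (LH, *Slc2a5*), and every 95% interval held 0. For the first probe of *Slc2a9* the colon differences were 0.16 ± 0.11 for HL, 0.13 ± 0.11 for LH and 0.06 ± 0.11 for LL. For the second probe of *Slc2a2* they were -0.04, 0.02 and -0.02, each ± 0.11. *Slc2a5* had the widest colon spread, with an SD of 0.40 over 24 colons, and its lowest colons were LL mouse 6 at -3.23 and HL mouse 6 at -3.09. The LH difference was larger in liver than in colon by 1.18 ± 0.32 for the second probe of *Slc2a2*, 0.60 ± 0.25 for its first probe and 0.44 ± 0.17 for the first probe of *Slc2a9*. Over all probes, 0 had a difference between the tissues at FDR under 0.05 for HH *vs.* LH, and 7.54% had an unadjusted p under 0.05.

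**Figure D4:**
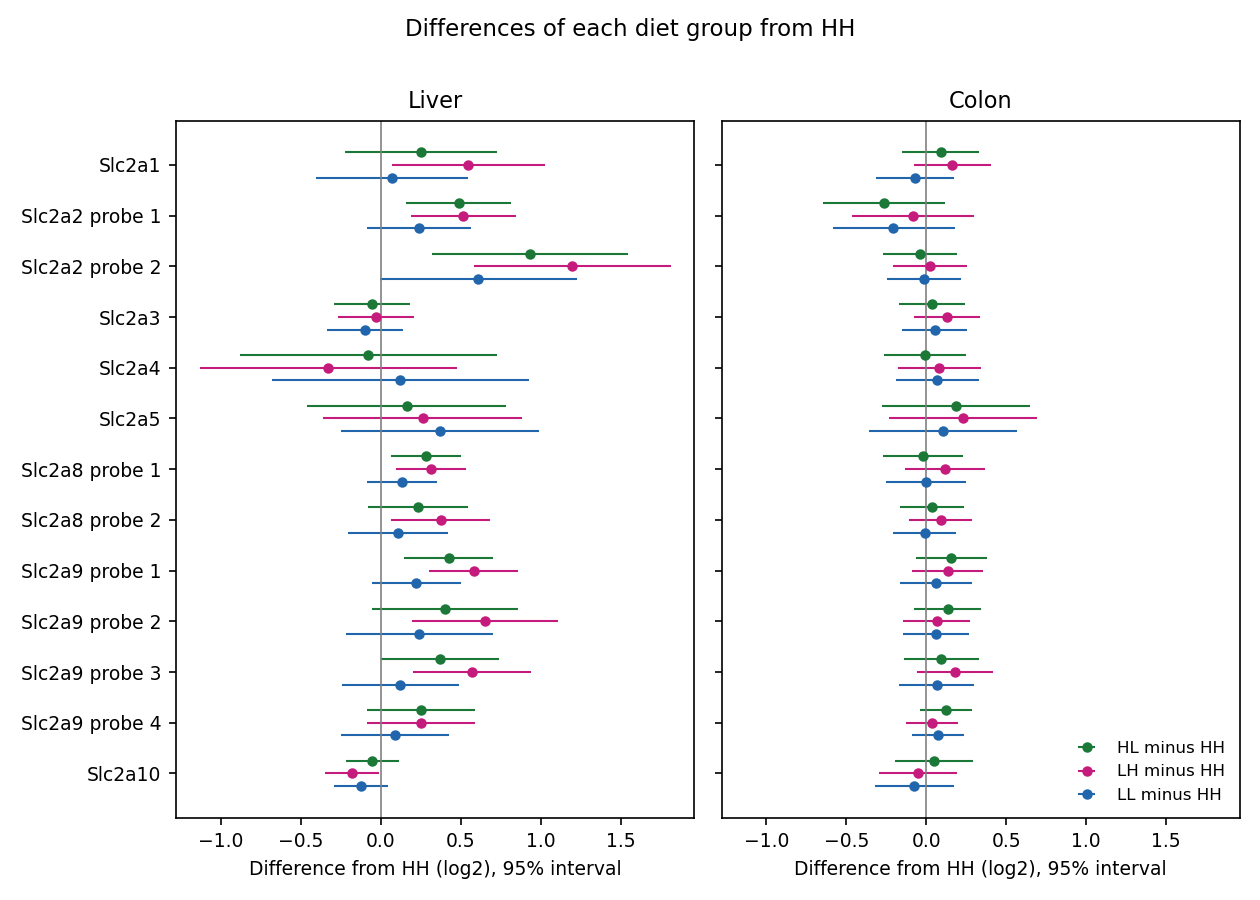
Difference of HL (green), LH (magenta) and LL (blue) from HH on the log2 scale (horizontal axis) for the 13 probes (vertical axis) in liver (left) and colon (right), with 95% intervals of the limma fit. In the liver the intervals for HL and LH lie above 0 for both probes of *Slc2a2*, the first of *Slc2a8* and the first and the third of *Slc2a9*. For LH alone they also lie above 0 for *Slc2a1* and the second probes of *Slc2a8* and *Slc2a9*, and below 0 for *Slc2a10*, and in the colon every interval holds 0. The intervals are not adjusted for their number and the genes were chosen with these values known, so they are a description and no test.

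The 3 further family members on the array were *Slc2a6*, *Slc2a12* and *Slc2a13*. *Slc2a13*, a proton-coupled inositol carrier, was lower in liver than in colon, with a log2 difference of -2.79 ± 0.06 (limma adjusted p = 2.19e-37), as was *Slc2a6* with -1.29 ± 0.08 (adjusted p = 6.92e-19). *Slc2a12* differed by 0.07 ± 0.07 (adjusted p = 0.386). In diet comparisons none was called, and the HH *vs.* LH difference of *Slc2a6* in colon was -0.49 ± 0.20 (adjusted p = 1, unadjusted 0.0203).

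The sodium-coupled and other sugar carriers numbered 11, of which 10 were measured. Of these 1 was called higher and 3 lower in liver, and the median difference was 0.18 against 0.01 over all probes. *Slc5a1*, the glucose carrier of the intestinal brush border known as SGLT1, was lower in liver, by a log2 difference of -1.61 ± 0.08 (limma adjusted p = 3.53e-23). None was called between diets. In liver, the LH minus HH difference was 0.20 ± 0.08 for *Slc50a1* (limma adjusted p = 0.309) and -0.21 ± 0.11 for *Slc5a11* (adjusted p = 0.455).

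Genes that trap hexoses in the cell or release them split by tissue. Of the 16 genes of this list, all measured, 10 were called higher and 5 lower in liver, with a median of 1.18. *G6pc*, which frees glucose from glucose 6-phosphate, was 4.97 ± 0.08 (log2) higher in liver, and *Khk*, which phosphorylates fructose, was 3.39 ± 0.07 higher. The differences of *Hkdc1* and *Hk1*, other hexokinases, were -5.79 ± 0.07 and -3.18 ± 0.05. Between diets 0 of the 16 were called in either tissue. In liver, 1 of the 16 was above HH in LH, where 47.3% of all probes were, with a median difference of -0.20 against -0.008 over all probes. The lowest unadjusted p values were those of *Slc37a2* (-0.35 ± 0.14, limma adjusted p = 0.318) and *Galk1* (-0.24 ± 0.09, adjusted p = 0.321).

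Regulators of the transporters gave 23 measured genes of 25, of which 11 were called higher and 5 lower in liver. *Onecut1* and *Klf15* were 4.73 ± 0.06 and 4.24 ± 0.08 higher in liver, and *Txnip*, which draws GLUT1 and GLUT4 from the cell surface, was lower, with a difference of -2.71 ± 0.07. None of the 23 was called between diets. *Klf15*, a transcription factor of the fasting liver known to raise *Slc2a4* in muscle and fat, had 1.39 ± 0.30 in HH livers (SD, n = 5), 1.93 ± 0.15 in HL, 1.90 ± 0.13 in LH and 1.71 ± 0.18 in LL (n = 6 each). It exceeded HH by 0.54 ± 0.12 (SE) in HL (limma adjusted p = 0.952, unadjusted 0.000111) and 0.51 ± 0.12 in LH (adjusted p = 0.18, unadjusted 0.000199). *Klf15* was named for its low unadjusted p in these same comparisons, so those values are a description and no test. *Hnf4a*, a hepatocyte factor, differed by 0.29 ± 0.10 for HL (limma adjusted p = 0.952) and 0.26 ± 0.10 for LH (adjusted p = 0.304). *Hif1a*, the hypoxia factor known to raise *Slc2a1*, differed by 0.40 ± 0.14 for HL (limma adjusted p = 0.952) and 0.23 ± 0.14 for LH (adjusted p = 0.512).

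The genes of urate production and transport, set beside *Slc2a9*, gave 15 measured genes of 16. Of these 8 were called higher and 4 lower in liver. *Uox*, the urate oxidase that degrades urate in the mouse liver, was 7.76 ± 0.07 higher in liver (limma adjusted p = 1.42e-51), and *Xdh*, which makes urate, was 0.62 ± 0.08 higher (9.23e-09). None was called between diets. The median HH *vs.* LH difference in liver was 0.01, with 9 of 15 above 0. *Abcg2*, a urate exporter, had LH minus HH differences of 0.50 ± 0.23 in liver (limma adjusted p = 0.394, unadjusted 0.0399) and -0.41 ± 0.16 in colon (adjusted p = 1).

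For the members with an SD of at least 0.4 within a tissue, the 3 genes with the nearest pattern over mice were found by the root mean square (RMS) difference of centred log2 ratios. For *Slc2a1* in the 23 livers they were *Nab2*, *Cul5* and *Rhbdf2* (RMS 0.23 to 0.24, where the SD of *Slc2a1* was 0.44). For *Slc2a4* in liver they were *Tkfc*, *Frmd8* and *Extl1* (0.38 to 0.41), and for *Slc2a5* in liver *Cpsf4l*, *Mup3* and *Prkcz* (0.24 to 0.30). For *Slc2a5* in the 24 colons they were *Sult2b1*, *Slc22a4* and *Lamb3*, all at 0.26. Each was the nearest of 12331 genes in liver or 14301 in colon, and the liver patterns of *Slc2a4* and *Slc2a5* share the low value of HH mouse 3.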

How the data were processed

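Liver RNA of 23 mice and colon RNA of 24 mice was measured on 48 Agilent 2-colour arrays. The methods describe colon and liver excised from the offspring, while the labels give different animal numbers in liver and colon. Whether both tissues came from the same animals cannot be told. The liver *vs.* colon fit treated them as 47 separate mice, without pairing. The authors deposited median spot and local background intensity, processed intensity and 0/1 flags (other) for each array, and reference-over-mouse log2 ratios for all arrays, which matched loess without background correction (r at least 0.9997). Per the submitters' processing notes, limma and R 3.0.2 were used. Here, a local background brighter than its spot was replaced by the median background of the array, and normexp (offset 50) and global loess followed. Between 102 and 261 outlier spots per array were left out, and spots of a probe and arrays of a mouse were averaged. With limma 3.58.1 in R 4.3.3, the 4 diet groups were fitted per tissue, or all 8 groups for liver *vs.* colon, with Benjamini-Hochberg adjustment over all probes. A call needed a fold change over 1.5 and FDR under 0.05. Intervals are 95% intervals of these fits. Probes were named by accession through the RefSeq gene table. The fit was tested on simulated data, and the number of arrays limits the precision. The p-values measure the spread between mice. The diet before weaning was given to the dams and the labels name no litters, so littermates may be counted as separate mice.

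The transporters and gene lists were chosen with earlier results of these data known. Of each list, the genes with the 2 lowest unadjusted p in HH *vs.* LH and HH *vs.* HL were eligible to be named where none was called. The unadjusted p of genes named in this way are a description and no test. For liver *vs.* colon they were called genes with low adjusted p, and *Khk*, *Xdh* and the remaining family members were added for their role after their values were seen. Nearest patterns needed an SD of at least 0.4. Alternatives were other background corrections, normalizations, a filter on dim probes, slide blocks, other samples in the fit, the threshold, and leaving out each mouse. Some genes of the lists are not reported here by name.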

Additional observations from a re-analysis of the deposited data

Results flagged for a closer look

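Of 104 groups of mice checked probe by probe, 6 held a mouse far from the rest of its group, and chance alone flags about 1 in 20 groups. In the liver both were HH mouse 3, at 1.04 for the first probe of *Slc2a2* (others 1.77 to 1.94) and at -3.71 for *Slc2a5* (others -1.65 to -1.25). In the colon, whose mice are numbered apart from those of the liver, colon HL mouse 3 stood high for the first probe of *Slc2a9* at 0.475 (others 0.08 to 0.17) and for its second probe at 0.385 (others -0.31 to -0.13). Colon LH mouse 1 had 0.75 for the third probe of *Slc2a9* in colon (others -0.14 to 0.12). Colon HH mouse 3, whose animal number in the labels is not that of liver HH mouse 3, had 1.95 for *Slc2a10* (others 1.40 to 1.51).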

How the results depend on the processing

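No called value changed sign under any alternative. Of 940 values recomputed with no mouse left out, 905 moved by less than the spread between mice, 35 moved by more and 892 kept their sign. In diet comparisons 0 member probes were called under every alternative. The LH minus HH difference in liver was 0.42 to 0.64 for the first probe of *Slc2a2* and 0.57 to 0.70 for that of *Slc2a9* over the other settings, and 0.35 to 0.60 and 0.49 to 0.67 when each mouse was left out in turn. The replicate numbers follow accession order and mark a shared slide only. With slide as a replicate block these differences were 0.50 ± 0.15 and 0.57 ± 0.13, and 4 of all probes were called for the interaction of the diets in liver.

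In liver, HH *vs.* LH called 6 of all probes with the 2 arrays of HH mouse 3 as 2 mice, 17 with only the 2 groups compared in the fit, and 0 to 2 when a mouse was left out (2 without HL mouse 4, 1 without LL mouse 4). For liver *vs.* colon, 20275 probes were called with processed signals, 24223 with median centring and 28646 with no fold threshold, against 12497. The member probes called were 9 to 13, and 10 whichever mouse was left out. With processed signals the liver minus colon difference was 9.59 for *Slc2a2*, 2.17 for *Slc2a9* and -4.41 for *Slc2a10*. With the local background as read it was 1.43 for *Slc2a9*. Median centring moved the median of all probes by 0.20 and gave 6.98 for *Slc2a2*, 1.06 for *Slc2a9*, 0.32 for *Slc2a8*, -0.08 for *Slc2a5*, -0.78 for *Slc2a3*, -2.22 for *Slc2a1* and -3.69 for *Slc2a4*. The cause was not tested. Signals near background limit the first probe of *Slc2a2* in colon, *Slc2a10* in liver and the fourth probe of *Slc2a9*.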
